A study of Mus musculus with 12 samples.

Results

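Npy, Ggct, Vmn1r19, Fabp1 and Nat8f5 are 5 genes of mouse chromosome 6 whose kidney signal differed from wild type in the same direction in mice lacking Mut and in mice heterozygous for it. They are 5 of 19934 genes measured in the series and of 1099 on chromosome 6. They were chosen by their differences from wild type in both genotypes, so those differences are given below as values with no test. Each gene had 1 probe set with its symbol alone, and no shared probe set listed any of them.

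Whole-kidney RNA of 12 female mice of the C57BL/6 background was hybridised to 1 array each, after 2 months on a high-protein diet that all groups shared. The 4 mutants were Mut -/- and carried the transgene TgINS-Alb-Mut, the 4 heterozygotes were Mut +/-, and the 4 wild-type mice were Mut +/+. The labels list the transgene for the mutants alone, and the albumin promoter after which it is named acts in the liver. Mut (current symbol Mmut) encodes the mitochondrial enzyme methylmalonyl-CoA mutase, whose loss gives methylmalonic acidemia, and the gene lies on chromosome 17. The comparisons asked whether the 5 genes move with the number of intact Mut copies or in the way neighbours on a shared chromosome segment would. The sources used here do not say whether the groups were littermates.

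The 5 genes share a chromosome and no known pathway. Npy encodes neuropeptide Y, a transmitter of brain and of sympathetic nerves. Ggct encodes gamma-glutamylcyclotransferase, which acts in the gamma-glutamyl cycle of glutathione turnover. Vmn1r19 encodes a vomeronasal receptor of the family that senses pheromones in the nose of rodents. Fabp1 encodes the liver-type fatty acid binding protein, a carrier of long-chain fatty acids in hepatocytes and a target of the nuclear receptor PPAR-alpha. Nat8f5 belongs to the Nat8 family of acetyltransferase-like genes. A stretch of chromosome that differs between groups of mice can carry variants of several genes at once, and such variants can change either the amount of a transcript or how well array probes bind it.

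The promoters of the 5 genes are printed because the genes shifted together but in opposite directions, 3 up and 2 down. Each runs 5′ to 3′ along the gene, from 250 bases before to 50 bases after its start, as given by RefSeq for build GRCm38.p6. They lie at chr6:71199629-71199928 on the plus strand (Fabp1), chr6:85820923-85821222 on the minus strand (Nat8f5), chr6:49822460-49822759 on the plus strand (Npy), chr6:54992818-54993117 on the minus strand (Ggct) and chr6:57404214-57404513 on the plus strand (Vmn1r19). Capitals mark matches, on either strand, to 4 short motifs: the nuclear receptor half-site AGGTCA, the TATA box TATAAA, the GC box GGGCGG and the CCAAT box.
Fabp1: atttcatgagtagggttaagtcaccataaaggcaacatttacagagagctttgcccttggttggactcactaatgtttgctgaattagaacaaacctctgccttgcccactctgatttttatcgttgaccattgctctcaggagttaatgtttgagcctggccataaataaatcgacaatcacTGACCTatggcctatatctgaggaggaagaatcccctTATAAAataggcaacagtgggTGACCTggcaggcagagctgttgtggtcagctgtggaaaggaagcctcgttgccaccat
Nat8f5: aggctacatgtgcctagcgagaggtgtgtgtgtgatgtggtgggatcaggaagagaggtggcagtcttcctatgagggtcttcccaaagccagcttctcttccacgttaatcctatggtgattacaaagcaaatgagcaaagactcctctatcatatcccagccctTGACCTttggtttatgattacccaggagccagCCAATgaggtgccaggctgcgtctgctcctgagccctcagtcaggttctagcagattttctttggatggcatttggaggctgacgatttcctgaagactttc
Npy: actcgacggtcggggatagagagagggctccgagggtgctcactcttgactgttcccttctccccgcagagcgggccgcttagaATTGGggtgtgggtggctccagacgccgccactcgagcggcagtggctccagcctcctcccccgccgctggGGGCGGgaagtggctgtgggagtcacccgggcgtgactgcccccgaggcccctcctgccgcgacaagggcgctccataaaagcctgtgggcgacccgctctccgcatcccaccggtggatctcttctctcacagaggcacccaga
Ggct: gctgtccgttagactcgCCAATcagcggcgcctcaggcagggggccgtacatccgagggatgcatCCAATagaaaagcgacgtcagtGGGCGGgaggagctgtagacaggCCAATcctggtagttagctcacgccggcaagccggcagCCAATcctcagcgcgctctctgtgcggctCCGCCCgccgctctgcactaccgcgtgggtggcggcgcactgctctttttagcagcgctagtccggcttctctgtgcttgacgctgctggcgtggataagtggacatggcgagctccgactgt
Vmn1r19: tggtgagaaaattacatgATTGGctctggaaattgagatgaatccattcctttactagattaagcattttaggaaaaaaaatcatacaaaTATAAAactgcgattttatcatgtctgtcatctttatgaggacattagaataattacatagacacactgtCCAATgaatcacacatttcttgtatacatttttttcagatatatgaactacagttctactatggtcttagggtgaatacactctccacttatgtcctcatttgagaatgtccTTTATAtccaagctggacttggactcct

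The AGGTCA half-site was found at positions -67 and -9 from the start of Fabp1 and at position -84 of Nat8f5, and in neither direction in the other 3 windows. It occurs in 16.3% of the 32851 RefSeq promoter windows of this length. Fabp1 also held TATAAA at position -30, and Vmn1r19 held it at positions -160 and 23; 13.6% of all windows hold it. Ggct held 4 CCAAT and 2 GGGCGG matches, and the other matches were 1 of each in Npy, 2 CCAAT in Vmn1r19 and 1 CCAAT in Nat8f5. Those motifs occur in 37.4% and 35.7% of all windows. No 2 marked matches overlapped. A match is a description of these letters only.

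One array stood apart in tissue content. All 8 measured markers of the adrenal cortex were highest on mutant replicate 3, where their summed signal was 13.94 on the log2 scale against 8.92 to 9.24 on the other 11 arrays. Th, the catecholamine synthesis gene of adrenal medulla and sympathetic nerve, was 8.45 there and 6.71 to 7.04 elsewhere. Members are therefore also given without that array. The 4 arrays per group limit the precision of every value.

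Mmut, the targeted gene, is given for comparison. It averaged 8.35 ± 0.12 in mutants, 9.92 ± 0.04 in heterozygotes and 10.53 ± 0.06 in wild-type mice (log2 signal, SD, n = 4 each). The heterozygote difference from wild type was 28.3% of the mutant difference on the log2 scale. As plain levels, heterozygotes held 0.652 and mutants 0.221 of the wild-type signal. How other genes follow the Mut dose was not tested. The sources used here do not say whether the Mmut probes also read the transgene.

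Fabp1, the fatty acid carrier, had the largest differences of the 5. Its log2 signal was 11.30, 8.53, 9.90 and 8.01 in the mutants, 9.81, 9.69, 9.52 and 9.35 in the heterozygotes and 6.84, 6.70, 6.52 and 6.47 in the wild-type mice. Every mutant and heterozygote lay above every wild-type mouse, and the mutants spread on both sides of the heterozygotes. The gap between the lowest of these 8 arrays and the highest wild-type array was 1.17 on the log2 scale. Mutants averaged 6.97-fold above wild type (log2 difference 2.80, SE 0.50) and heterozygotes 7.79-fold above it (log2 difference 2.96, SE 0.50). Both SEs come from 1 spread shared by all 3 groups in the fit. The SD was 1.48 in mutants, 0.20 in heterozygotes and 0.17 in wild-type mice (n = 4 each). The lowest and highest mutant differed 9.77-fold, while the lowest and highest heterozygote differed 1.37-fold.

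Nat8f5, of the acetyltransferase-like family, rose with a wide spread in every genotype. Its log2 signal was 11.28, 10.84, 10.29 and 11.05 in the mutants, 10.64, 10.10, 10.33 and 11.19 in the heterozygotes and 8.24, 9.19, 8.72 and 9.15 in the wild-type mice. Mutants and heterozygotes overlapped, and both lay above all wild-type mice with a gap of 0.91. Mutants averaged 4.11-fold above wild type (log2 difference 2.04, SE 0.26) and heterozygotes 3.35-fold above it (log2 difference 1.74, SE 0.26). The SD was 0.42 in mutants, 0.47 in heterozygotes and 0.44 in wild-type mice (n = 4 each).

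Npy, the neuropeptide gene, shifted less and more evenly. Its log2 signal was 9.10, 8.81, 9.02 and 8.94 in the mutants, 9.21, 9.15, 9.04 and 8.75 in the heterozygotes and 8.23, 8.24, 8.02 and 8.17 in the wild-type mice. Mutants and heterozygotes again overlapped each other and lay above all wild-type mice, with a gap of 0.51. Mutants averaged 1.75-fold above wild type (log2 difference 0.81, SE 0.09) and heterozygotes 1.83-fold above it (log2 difference 0.87, SE 0.09). Mutant replicate 3, the array with adrenal markers, held 9.02, and the summed adrenal cortex markers were 9.02 to 9.24 in heterozygotes and 8.92 to 9.15 in wild-type mice; the part of adrenal tissue in the Npy values was not tested.

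Ggct, the gamma-glutamyl cycle gene, went the other way. Its log2 signal was 7.56, 7.50, 7.23 and 7.45 in the mutants, 7.46, 7.63, 7.71 and 7.20 in the heterozygotes and 8.06, 8.31, 8.34 and 8.49 in the wild-type mice. All 8 mutants and heterozygotes lay below the wild-type mice, with a gap of 0.35, the narrowest of the 5. Mutants averaged 1.82-fold below wild type (log2 difference -0.86, SE 0.11) and heterozygotes 1.74-fold below it (log2 difference -0.80, SE 0.11).

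Vmn1r19, the vomeronasal receptor gene, was the other gene that fell. Its log2 signal was 6.01, 5.87, 5.63 and 6.34 in the mutants, 6.38, 7.01, 7.17 and 6.85 in the heterozygotes and 8.09, 8.06, 8.39 and 8.42 in the wild-type mice. Here the 3 genotypes formed 3 separate steps, although the highest mutant and the lowest heterozygote nearly met. Mutants averaged 4.85-fold below wild type (log2 difference -2.28, SE 0.17) and heterozygotes 2.62-fold below it (log2 difference -1.39, SE 0.17).

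**Figure D1:**
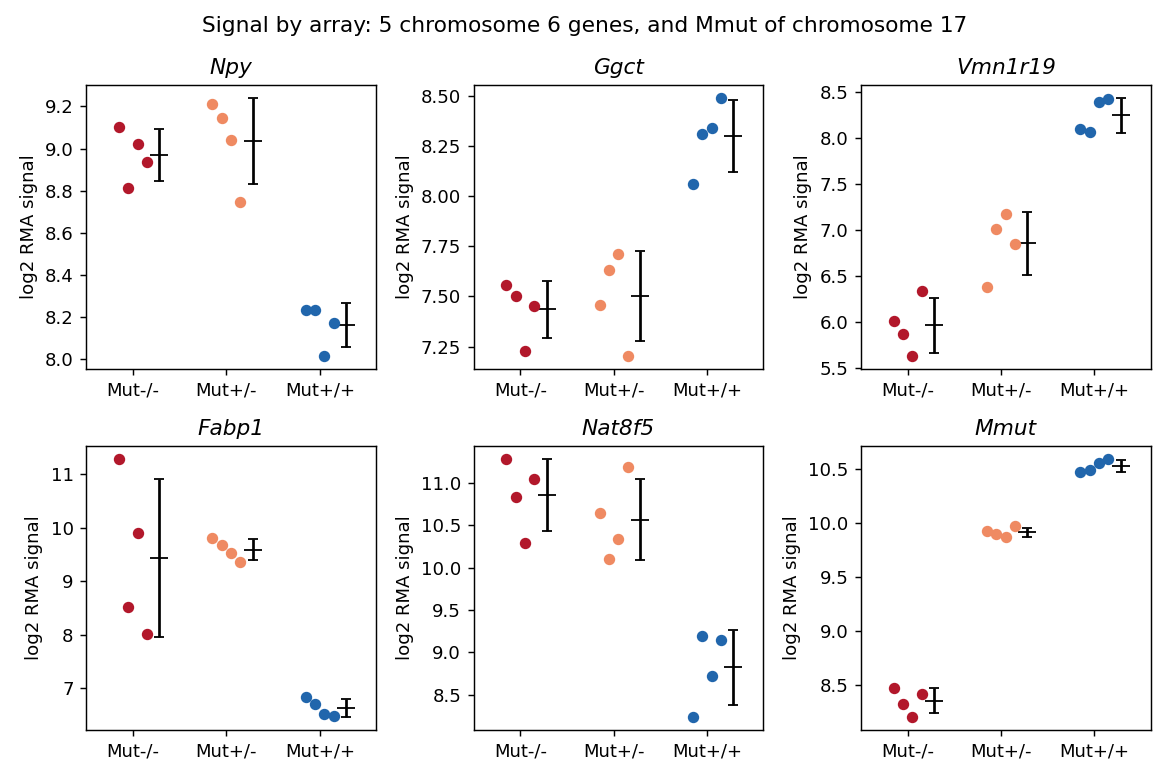
Log2 RMA signal of the 5 chromosome 6 genes and of Mmut on each of 12 arrays, with mutants on the left, heterozygotes in the middle and wild-type mice on the right; black marks are the mean and SD of 4 arrays. For each chromosome 6 gene the 4 wild-type arrays lie apart from the other 8, and for Mmut and Vmn1r19 the heterozygotes lie between the other groups.

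All 5 genes thus had the 4 wild-type arrays apart from the 8 others, which was so for 3.61% of all genes measured (720 of 19934). The members were chosen by their differences from wild type, so nothing is read from that count. Over all genes 9.66% passed limma at an adjusted p under 0.05 for mutant against wild type and 0.135% for heterozygote against wild type. Of the 27 genes that passed for heterozygote against wild type, 6 lay on chromosome 6, and the 1 outside the members was Nat8. Chromosome 6 holds 1099 of the 19934 genes, and chromosome 14 had 5 called of 699. With the members chosen on this contrast, the count does not show a concentration on chromosome 6. Leaving out each array in turn, the mutant difference ran from 2.18 to 3.28 for Fabp1, 1.85 to 2.23 for Nat8f5, 0.76 to 0.86 for Npy, -0.94 to -0.80 for Ggct and -2.40 to -2.17 for Vmn1r19 on the log2 scale. Without mutant replicate 3 it was 2.65 for Fabp1, 2.23 for Nat8f5, 0.79 for Npy, -0.80 for Ggct and -2.17 for Vmn1r19.

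The place of the heterozygotes differed between the members and Mmut. The heterozygote difference from wild type was 108% of the mutant difference for Npy, 106% for Fabp1, 92.5% for Ggct and 85.5% for Nat8f5, so that their heterozygotes sat at or close to the mutant level. For Vmn1r19 it was 61.0%. These shares rest on the contrasts that chose the genes and were not tested. Mmut is the targeted gene itself, so its share does not tell how a gene responding to Mut dose would behave.

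Mutants were then set against heterozygotes, a contrast the choice of genes did not name, although it uses 8 of the same arrays. It is not independent of the choice, which favoured genes whose heterozygotes lay far from wild type. That can move the difference between mutants and heterozygotes. The calls and intervals below therefore do not decide how close the 2 genotypes are. By limma, Vmn1r19 alone among the 5 differed, at 1.85-fold lower in mutants (log2 difference -0.89, SE 0.17, 95% interval -1.25 to -0.53, adjusted p = 0.0146), and all 4 mutants lay below all 4 heterozygotes. Its two-sided exact permutation p was 0.0286, and no smaller value is possible with 4 arrays in each group. Over all genes 2.54% passed this contrast, and in 9.69% the arrays of the 2 genotypes did not overlap. With only mutants and heterozygotes in the fit, the call of Vmn1r19 ended (adjusted p = 0.062).

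The other 4 did not pass, and their mutant and heterozygote arrays overlapped. The log2 difference of Npy was -0.07 (95% interval -0.27 to 0.14, limma adjusted p = 0.833). That of Ggct was -0.07 (95% interval -0.31 to 0.18, limma adjusted p = 0.87). That of Nat8f5 was 0.30 (95% interval -0.27 to 0.86, limma adjusted p = 0.679). Fabp1 was measured least closely, at -0.16 (95% interval -1.24 to 0.92, limma adjusted p = 0.939), an interval from 0.422-fold to 1.9-fold. Their two-sided exact permutation p-values were 0.6, 0.6, 0.343 and 0.943 in the order Npy, Ggct, Nat8f5 and Fabp1.

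**Figure D2:**
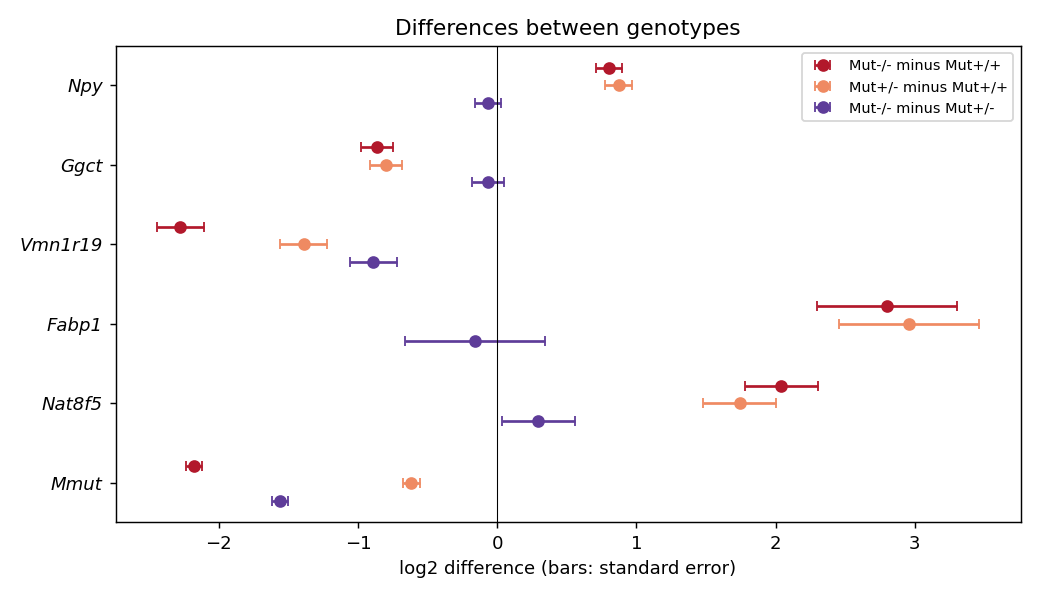
Log2 differences between genotypes with standard errors from the fit of all 3 groups, for the 5 chromosome 6 genes and Mmut. The points of mutant minus heterozygote lie near 0 for Npy, Ggct and Fabp1 and at 0.30 for Nat8f5, while those of Vmn1r19 (-0.89) and Mmut (-1.56) lie below 0.

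The 5 genes are spread along a long part of the chromosome. In RefSeq order, Npy was measured gene 311 of 1099, Ggct 355, Vmn1r19 383, Fabp1 444 and Nat8f5 548, with 43, 27, 60 and 103 measured genes between neighbours. The interval from Npy to Nat8f5 held 233 other measured genes, none of them a member. In heterozygotes against wild type 0 of the 233 passed limma at an adjusted p under 0.05, beside 0.135% of all genes. Nat8, the measured gene just past Nat8f5, did pass (limma adjusted p = 0.0456) and is counted outside the interval throughout. Of the 233, 40 (17.2%) had an unadjusted p under 0.05, beside 11.3% of all genes and 10.5% of the 861 genes of chromosome 6 outside the interval. In mutants against wild type 24 (10.3%) passed, 9 higher and 15 lower, beside 9.66% of all genes. In mutants against heterozygotes 7 (3%) passed, beside 2.54%. The median log2 difference from wild type was -0.00 in mutants and -0.01 in heterozygotes over the interval, and 0.00 and 0.01 over all genes.

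The wild-type arrays lay apart from the 8 others in 10 of the 233 interval genes (4.29%), in 3.61% of all genes and in 2.67% of the rest of chromosome 6. With 3.46%, the whole chromosome ranked 13 of 20 by this share. The members themselves count in the last of these shares. With the 5 members left out, runs of 50 neighbouring genes on chromosome 6 held at most 6 such genes, in a run from Cpvl to Vmn1r27. Over all 18856 overlapping runs the median was 2 and the highest 9, and 9 of 20 chromosomes reached 6 or more.

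**Figure D3:**
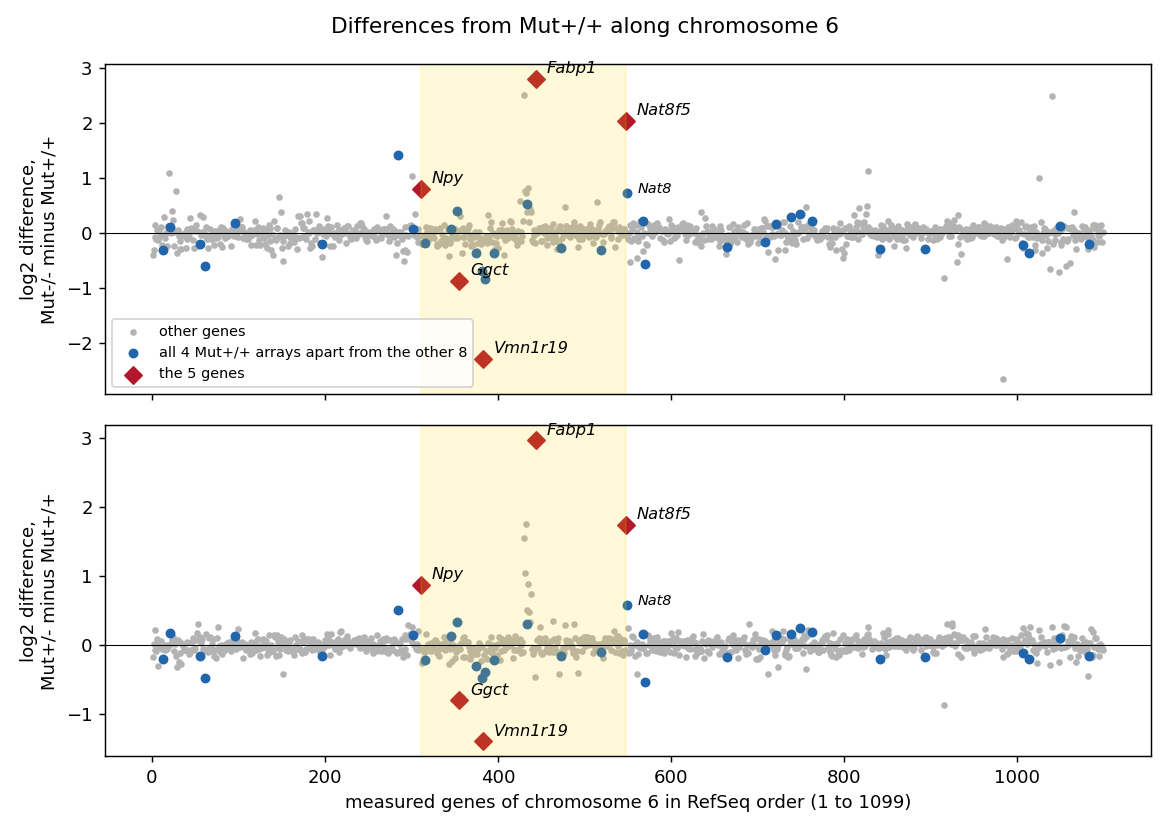
Log2 difference from wild type of 1099 measured genes in RefSeq order along chromosome 6, for mutants above and heterozygotes below; the shaded band runs from Npy to Nat8f5, red diamonds are the 5 genes and blue points are other genes whose 4 wild-type arrays lay apart from the other 8. Most genes of the band lie near 0, and the blue points in it number 10.

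The 10 interval genes with separated wild-type arrays included close neighbours of the members. Vmn1r18, the receptor gene measured next to Vmn1r19, averaged 5.74 ± 0.10 in mutants, 5.94 ± 0.07 in heterozygotes and 6.42 ± 0.27 in wild-type mice (log2 signal, SD, n = 4 each). It passed against wild type in mutants (limma adjusted p = 0.0018) but not in heterozygotes (limma adjusted p = 0.108). Vmn1r6 and Vmn1r27 of the same family were also lower in mutants, at log2 differences of -0.35 (limma adjusted p = 0.00401) and -0.36 (limma adjusted p = 0.0161), and had log2 differences of -0.31 and -0.22 in heterozygotes. Herc6, a ubiquitin ligase family gene that interferon induces, lies 2 measured genes from Vmn1r19. It was 1.78-fold lower in mutants than in wild-type mice (limma adjusted p = 0.000523) and also lower in mutants than in heterozygotes (limma adjusted p = 0.0411). Mturn, 3 measured genes from Ggct, was 1.32-fold higher in mutants (limma adjusted p = 0.00767) and had a log2 difference of 0.34 in heterozygotes (limma adjusted p = 0.134). The others were Cycs, which encodes cytochrome c, Rprl1, Tgoln1, 9130019P16Rik and Dguok, which encodes mitochondrial deoxyguanosine kinase, with log2 differences of -0.21 to 0.30 in heterozygotes.

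Among the interval genes called between mutants and heterozygotes, the 5 with the smallest adjusted p had heterozygotes near wild type. Gadd45a, a growth arrest gene, averaged 9.04 in mutants, 8.55 in heterozygotes and 8.46 in wild-type mice. Mthfd2, of mitochondrial folate metabolism, and Gars, the glycyl-tRNA synthetase gene measured next to Ggct, were higher in mutants than in heterozygotes by 0.63 and 0.36 on the log2 scale (limma adjusted p = 0.0157 and 0.0163). Vopp1 was higher by 0.29 (limma adjusted p = 0.0331) and Ggcx, the vitamin K-dependent carboxylase gene, was lower (log2 difference -0.32, limma adjusted p = 0.0305). None of these 5 had its wild-type arrays apart from the 8 others.

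Immunoglobulin kappa variable segments lie shortly before Fabp1 in the order. All 8 measured had higher means than wild type in mutants (log2 differences 0.19 to 2.51) and in heterozygotes (0.34 to 1.76). None passed the test in either contrast (smallest limma adjusted p = 0.218 and 0.215), and in none did the wild-type arrays lie apart.

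The 10 measured genes on each side of each member, a window chosen after the values were seen, made 100 genes. Of these, 9 (9%) had their wild-type arrays apart, 3 of them beside Vmn1r19, 2 each beside Npy and Ggct, and 1 each beside Fabp1 and Nat8f5. Again 24 (24%) had an unadjusted p under 0.05 for heterozygote against wild type, where 11.3% of all genes had, and 1 passed after adjustment.

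**Figure D4:**
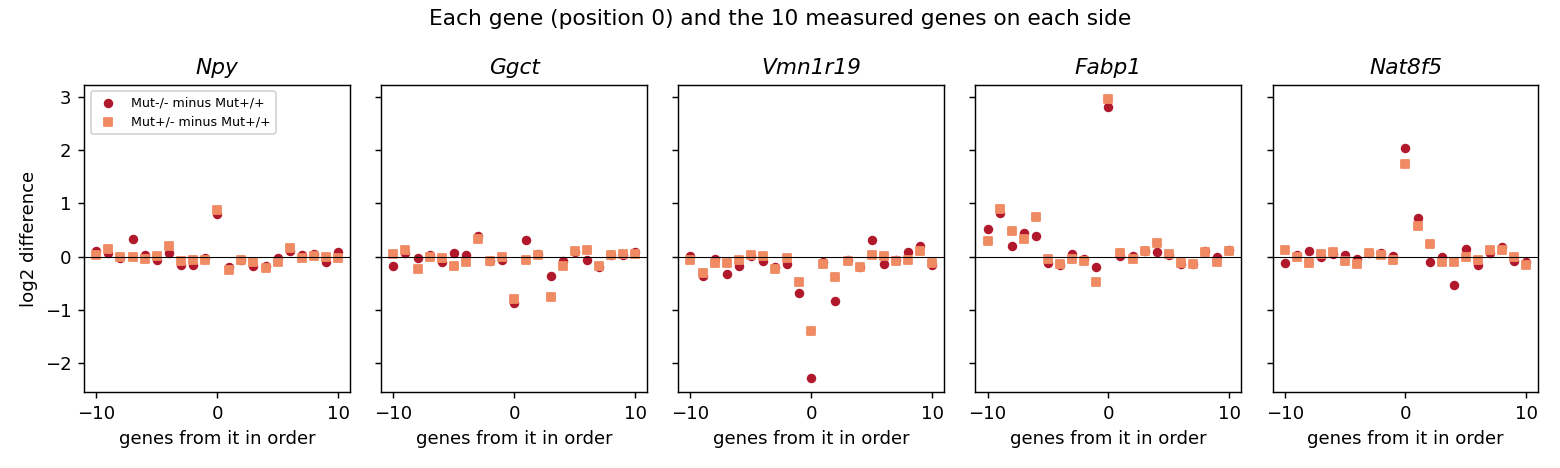
Log2 differences from wild type of each of the 5 genes, at position 0, and of the 10 measured genes on each side in RefSeq order, with mutants as red circles and heterozygotes as orange squares. Each gene lies farther from 0 than its 20 neighbours in both genotypes; Nat8, at position 1 beside Nat8f5, and Vmn1r18, at position -1 beside Vmn1r19, lie on the same side as the member.

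The 1 neighbour that passed was Nat8, a kidney and liver acetyltransferase gene of the same family and the measured gene next to Nat8f5. Its log2 signal was 10.86, 10.86, 10.79 and 10.81 in the mutants, 10.72, 10.62, 10.44 and 10.93 in the heterozygotes and 9.83, 10.20, 10.13 and 10.23 in the wild-type mice. The wild-type mice lay below all others. Mutants were 1.66-fold above wild type (limma adjusted p = 0.000808) and heterozygotes 1.5-fold above it (limma adjusted p = 0.0456). The mutants and heterozygotes differed by 0.15 on the log2 scale (95% interval -0.07 to 0.37, limma adjusted p = 0.545).

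The rest of the Nat8 family did not share this pattern. Of 5 measured members of the family list, Nat8 alone passed against wild type in either genotype. Over all genes 9.66% passed in mutants and 0.135% in heterozygotes. Nat8f1 averaged 8.89 ± 0.88 in mutants, 9.32 ± 0.13 in heterozygotes and 9.41 ± 0.10 in wild-type mice (log2 signal, SD, n = 4 each). Nat8f2 and Nat8f4 had log2 differences of -0.10 and -0.01 in mutants and 0.24 and -0.11 in heterozygotes. A further 3 probe sets are annotated to several other Nat8f genes at once, and in none of them did the wild-type arrays lie apart from the 8 others. In the first of them the log2 signal was 10.28 to 11.47 in mutants, 11.69 to 11.93 in heterozygotes and 11.14 to 11.41 in wild-type mice, so that the heterozygotes alone stood above.

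Other vomeronasal receptors of the interval were then described with Vmn1r19 left out. Of 26 measured, 3 had wild-type arrays above all 8 others, namely Vmn1r6, Vmn1r18 and Vmn1r27. Over all genes 505 of 19934 had them above, and 3.61% had them apart in either direction. Wild-type arrays lay above all others in 0 of 14 Vmn1r genes elsewhere on chromosome 6 and 0 of 77 on other chromosomes. The median log2 difference from wild type over the 26 was -0.10 in mutants and -0.06 in heterozygotes, and it was 0.01 and -0.00 over the 77. Their signals were low, with a mean under 6 for 25 of the 26. Of all 40 other chromosome 6 receptors measured, 4 (10%) passed as lower in mutants than in wild-type mice. Over all genes 1334 of 19934 passed as lower, and 9.66% in either direction, so nothing is read from that count. In heterozygotes 0 of the receptors passed, beside 0.135% of all genes. By adjusted p the first 3 of the 4 called lower in mutants were Vmn1r18, Vmn1r6 and Vmn1r11.

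In 4 of 6 probe sets shared by several Vmn1r genes of the interval the wild-type arrays lay above all others, against 6.91% of all 1621 probe sets with several symbols in either direction. The brightest of them had a log2 signal of 8.13 to 8.99 in mutants, 9.43 to 9.76 in heterozygotes and 10.30 to 10.63 in wild-type mice, so that its 3 genotypes did not overlap, as for Vmn1r19. Close relatives of this family can share probe sequence, so one transcript may be read by several of these probe sets, which was not tested.

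Other genes of the members' own pathways and families were read for the same shifts. Of 23 measured targets of PPAR-alpha, which also acts on Fabp1, 10 passed as higher and 1 as lower in mutants against wild type. In heterozygotes against wild type 0 passed. Over all genes 9.66% passed the first contrast and 0.135% the second, so the 0 is near the share over all genes. The list's median log2 difference was 0.33 in mutants and 0.01 in heterozygotes. Between mutants and heterozygotes 6 passed as higher and 1 as lower in mutants, beside 2.54% of all genes called. Acadl, of fatty acid oxidation, and Cyp4a14, a fatty acid hydroxylase gene, were 1.39-fold and 1.68-fold higher in mutants than in wild-type mice (limma adjusted p = 0.00102 and 0.00115). Cd36, a fatty acid uptake receptor gene, was 1.55-fold lower (limma adjusted p = 0.00333). In heterozygotes the log2 differences of these 3 were 0.24, 0.12 and -0.08. Of 9 other fatty acid binding protein genes, Fabp7 alone passed, and it fell in both genotypes, by 2.32-fold in mutants (limma adjusted p = 0.000269) and by 1.82-fold in heterozygotes (limma adjusted p = 0.0329). The median log2 difference of the 9 was 0.01 in mutants and -0.09 in heterozygotes.

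In the neuropeptide Y system, 8 receptors, related peptides and the cleaving peptidase were measured. The receptor gene Npy6r was 2.71-fold higher in mutants (limma adjusted p = 0.00342), and Dpp4, the peptidase that cleaves neuropeptide Y, was 1.42-fold lower (limma adjusted p = 0.0028). Neither passed in heterozygotes, where the log2 differences were 0.16 and -0.46 and 0.135% of all genes passed. For Dpp4, a gene of chromosome 2, the wild-type arrays lay above the 8 others, and for Npy6r they did not lie apart. The list's median log2 difference was 0.05 in mutants and 0.06 in heterozygotes. In the gamma-glutamyl cycle and glutathione list, 2 of 13 passed as higher and 2 as lower in mutants against wild type. Over all genes 9.66% passed that contrast. In heterozygotes 0 of the list passed. Its median log2 differences were 0.00 in mutants and 0.03 in heterozygotes. Oplah, which encodes 5-oxoprolinase and follows gamma-glutamylcyclotransferase in the cycle, was 1.42-fold higher in mutants (limma adjusted p = 0.000854). Chac1, a glutathione-degrading cyclotransferase gene, was 1.28-fold higher (limma adjusted p = 0.0143), and Gclm, a subunit gene of glutathione synthesis, 1.43-fold lower (limma adjusted p = 0.00528). In heterozygotes the log2 differences of Oplah, Chac1 and Gclm were 0.26, 0.13 and 0.03. The wild-type arrays lay below the 8 others for Oplah and Chac1, which are not on chromosome 6, and not apart for Gclm.

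Markers of other cell types were read beside the members, since a change in cell number and one in RNA per cell cannot be told apart in whole kidney. In heterozygotes against wild type, 0 markers passed in 7 of 8 lists, and in the hepatocyte list Serpina1c alone passed, lower. Over all genes 0.135% passed this contrast, so counts of 0 are near the share over all genes. For mutants against wild type the share over all genes was 9.66%. In mutants against wild type, 4 of 6 distal tubule markers passed as lower (list median log2 difference -0.64), as did 3 of 8 endothelial (-0.31), 3 of 12 proximal tubule (-0.14) and 3 of 11 hepatocyte markers (0.01), among the last Alb, which encodes albumin. Of 8 macrophage markers 2 passed as higher and 1 as lower (0.16), and 2 of 8 sympathetic and medullary markers passed as lower (0.35). No marker passed among 8 of the adrenal cortex and 7 of adipocytes, whose medians were 1.12 and -0.37. All 8 adrenal cortex markers were highest on mutant replicate 3, as were 5 of the 8 sympathetic and medullary markers. The cortex sum was 13.94 on that array, 8.97 to 9.09 on the other mutants and 8.92 to 9.15 in wild-type mice.

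The summed log2 signal of the distal tubule markers was 12.95 to 13.54 in mutants, 13.69 to 13.88 in heterozygotes and 13.79 to 13.84 in wild-type mice. That of the endothelial markers was 12.02 to 12.47 in mutants, 12.50 to 12.77 in heterozygotes and 12.63 to 12.82 in wild-type mice. That of the macrophage markers was 11.61 to 12.39 in mutants, 11.67 to 12.26 in heterozygotes and 11.56 to 11.79 in wild-type mice. In the distal and endothelial lists the mutants thus lay below both other genotypes, while heterozygotes and wild-type mice overlapped in all 3. The proximal tubule sum was 15.70 to 16.06 in mutants, 16.01 to 16.07 in heterozygotes and 16.05 to 16.08 in wild-type mice. The hepatocyte sum was 12.41 to 12.98 in mutants, 12.64 to 12.85 in heterozygotes and 12.59 to 12.90 in wild-type mice. For the sympathetic and medullary list the sum was 11.33 to 11.92 in mutants, 11.46 to 11.57 in heterozygotes and 11.68 to 11.87 in wild-type mice. Its lower heterozygote sum came from Slc18a1 and Ddc, with log2 differences from wild type of -0.35 and -0.37 (limma adjusted p = 0.414 and 0.0875). The other 6 of the list, Th and Dbh among them, lay between -0.00 and 0.07, and the list median in heterozygotes was 0.00. The part of cell content in the members' shifts was not tested.

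Likeness of pattern was measured as the root mean square difference of mean-centred log2 signal over the 12 arrays, smaller values being more alike. The gene most like Vmn1r19 among all measured was Mmut, at 0.41, followed by Scd1, a fatty acid desaturase gene, at 0.42 and Dio1, a deiodinase gene, at 0.47. Nearest to Fabp1 was Nat8f5 at 0.98, then Snord118 at 1.10 and Klk1b22 at 1.13. Nearest to Nat8f5 were Blvrb at 0.57, Mogat1 at 0.60 and Snora33 at 0.61. For Npy they were Snora30 at 0.23, Snora69 and Cry1 at 0.25 each, and for Ggct they were Serpina1c at 0.20, Mir301b and Ceacam1 at 0.21 each. Apart from Nat8f5 none of these 15 lies on chromosome 6, which holds 1099 of the 19934 measured genes. Nothing is read from that count. The measure grows with the size of a gene's own shift, so values are comparable only within a member.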

How the data were processed

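The submitters' processing notes name Expression Console 1.2.1 and RMA for the log2 signals per probe set that the authors deposited. RMA equalises the arrays and compresses differences near background. The description numbers run group by group, so any order of processing cannot be told apart from genotype. The deposited file had 35552 probe sets and 0 missing values. Genes were named through the platform annotation, and each of the 19934 with 1 symbol was represented by its brightest probe set. Order along chromosomes came from RefSeq of GRCm38.p6 by Entrez identifier, which 82 genes lacked; the sources used here do not give the array's build.

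Tests used limma 3.58.1 under R 4.3.3, with all 3 groups in 1 fit without covariates, with Benjamini-Hochberg adjustment over all genes, after the fit was tested on simulated data. P-values measure the spread between mice, 1 array each. Two-sided exact permutation tests were added for single genes. Figures used Python 3.11.15 and matplotlib 3.10.9.

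Members and lists were chosen with earlier results of these data known. Named were the members, Mmut, up to 12 interval genes with separated wild-type arrays (smallest heterozygote p), up to 5 called between mutants and heterozygotes, 3 genes most like each member and up to 3 called genes per list; the immunoglobulin segments, the neighbour window, the single cell type markers named and the counts with members left out were chosen after their values were seen. Alternatives were leaving out each array, blocking on the replicate number, array weights, fitting only the groups compared, median centring, quantile normalisation, keeping genes that reach a group mean of 6, and averaging all probe sets per gene.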

Additional observations from a re-analysis of the deposited data

How the results depend on the processing

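The mutant minus heterozygote differences of Npy and Nat8f5 kept their direction, without a call, under all 18 alternatives. Several of these could not move a member's difference. They were leaving out a wild-type array, averaging probe sets, blocking on the replicate number and fitting only the 2 groups. The log2 values of Npy and Nat8f5 ran from -0.16 to -0.01 and from 0.14 to 0.51 when single arrays were left out. Those of the uncalled Ggct ran from -0.16 to 0.00, above 0 without heterozygote replicate 3 (0.0046) or mutant replicate 3 (0.0034). Those of Fabp1 ran from -0.78 to 0.31, above 0 without mutant replicate 2 (0.14) or 4 (0.31). Vmn1r19 ran from -1.05 to -0.78 and was called under 17 of 18 alternatives, with adjusted p from 0.00639 to 0.062; with only the 2 groups in the fit it was not called (log2 difference -0.89). The interval count for mutant against wild type ran from 17 to 27 and stayed within 1.5 times the 24 of all arrays. That for heterozygote against wild type, 0, became 7 with array weights and 4 with only the 2 groups, and ran from 0 to 2 without single arrays (1 without mutant replicate 3, 2 without wild type replicate 1). That for mutant against heterozygote, 7, became 1 with only the 2 groups and 12 after quantile normalisation, and ran from 2 to 8 without single arrays: 2 without heterozygote replicate 1, 3 or 4 and 4 without heterozygote replicate 2. The 10 interval genes with separated wild-type arrays ran from 11 to 26 without single arrays, 26 without wild type replicate 1, where fewer arrays had to lie apart. Over all genes the calls ran from 1019 to 2165 for mutant against wild type (1925), from 5 to 163 for heterozygote against wild type (27) and from 191 to 668 for mutant against heterozygote (506), and the separated genes from 634 to 1795 (720). The cause of these moves was not tested otherwise. Same-numbered arrays of different genotypes did not deviate together: 1 of 12 pairs correlated over 0.1, and 0 of 12 arrays correlated best with their own number. With the replicate number as a block, 6 interval genes were called between mutant and heterozygote and 24 between mutant and wild type, Vmn1r19 had adjusted p = 0.0228, and over all genes 7 were called for heterozygote against wild type. Signals near background, as for most Vmn1r genes, limit what the arrays can show.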
